A study of Mus musculus with 6 samples.

Results

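A block of chromosome 15 from Cbx6 to Scube1 was examined gene by gene in glomeruli of dendrin knockout and littermate control mice. Its genes start between 18.98 and 15.20 Mb before Ddn, the gene of dendrin, on the same chromosome (GRCm38.p6 assembly, positions 79823898 to 83602583, with Ddn at 98803782). A list of 45 genes of this stretch was fixed, and all probe sets that the array annotation assigns to exactly 1 of them were taken, 96 of the 45101 on the array. The block had been noticed because several of its probe sets differed between knockout and control mice. All differences between the groups are therefore given as a description, with no test, and nothing is supported with them.

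Glomeruli, the filtration units of the kidney, had been isolated from 3 dendrin knockout mice and 3 wild-type littermates, all 13 months old, and an Affymetrix array was run with the total RNA of each one. In the knockout, the dendrin coding sequence was replaced by a cassette with eGFP and a neomycin resistance gene. The targeted embryonic stem cells were of 129S6SvEv/C57BL6 origin, the chimeric males were bred to C57BL/6 females, and the mice were backcrossed further onto C57BL/6. The labels give the genetic background 129S6SvEv/C57BL6 for the mice of both groups, and heterozygous parents gave knockout and wild-type mice in the same litters.

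Genes that lie close together on a chromosome are inherited together unless recombination separates them. DNA next to a targeted gene therefore tends to stay with the targeted allele through a backcross, with the sequence of the embryonic stem cells it came from. Such DNA can differ from that of the backcross strain both in how much RNA its genes give and in how well their RNA fits the probes of an array. The arrays hold no genotypes. The loss of dendrin, the inserted cassette and the strain of linked DNA all go with the knockout group in this design and cannot be told apart.

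Dendrin mRNA checked the labels first. The log2 value of Ddn was 3.80, 3.81 and 3.80 in knockout against 12.22, 12.81 and 12.31 in control glomeruli. The markers of podocytes, the cells that carry dendrin, were all well above background in every mouse, with a mean over 5 measured genes of 13.72 to 13.82 in knockout and 13.55 to 13.80 in control glomeruli. These 5 podocyte markers were all higher in knockout glomeruli, by 0.025 to 0.24, with overlap between the groups. The 6 markers of glomerular endothelium were all lower, by -0.23 to -0.042, with a median of -0.13. Among them, Kdr (-0.22) and Emcn (-0.079) did not overlap between the groups (background 13.7%), and the others did. Control 2 stood apart from the other arrays. Relative to the mean of the remaining 5 mice, the median over the markers was 1.84 for the loop of Henle, distal tubule and collecting duct, 1.53 for the proximal tubule and -1.93 for leukocytes. The mean of the 5 markers of mesangium and smooth muscle was 11.27 to 11.44 in knockout and 10.84 to 11.30 in control glomeruli. The list was split. Tagln, Acta2 and Myh11 differed by 0.68, 0.44 and 0.41, whereas Pdgfrb and Itga8 differed by -0.053 and -0.00031. Of the 5, 1 (Tagln) passed the study's criterion given further on (background 0.18%). The part of cell makeup in the differences of the block was not tested.

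The members are ordinary neighbours with many different roles. Cbx6 and Cbx7 encode chromobox proteins of Polycomb complexes, which bind methylated histones and keep genes silent. Csdc2, Poldip3, Phf5a, Zc3h7b and Tnrc6b encode proteins of RNA binding, splicing or RNA silencing. Cyb5r3, Cyp2d22, Adsl, Mcat and Slc25a17 are metabolic genes, Ep300 is a histone acetyltransferase, Xrcc6 is a subunit of the Ku complex of DNA repair, Tab1 activates the kinase TAK1, and Bik is a pro-apoptotic gene of the Bcl2 family. None of these roles was used in choosing the genes.

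Promoter sequence is shown for the 3 members that stood apart between the groups and have an entry in the RefSeq promoter table used here (GRCm38.p6), from 250 bases before to 50 bases after the start given there, 5′ to 3′ on the strand of the gene, with each CG dinucleotide in capitals. All 3 genes were lower in knockout glomeruli. They are Cbx6 (chr15:79834284-79834583, minus strand), Cbx7 (chr15:79932597-79932896, minus strand) and Serhl (chr15:83099955-83100254, plus strand). The window of Cbx7 lies around a start inside the annotated span of the gene, not at its outermost end.
Cbx6: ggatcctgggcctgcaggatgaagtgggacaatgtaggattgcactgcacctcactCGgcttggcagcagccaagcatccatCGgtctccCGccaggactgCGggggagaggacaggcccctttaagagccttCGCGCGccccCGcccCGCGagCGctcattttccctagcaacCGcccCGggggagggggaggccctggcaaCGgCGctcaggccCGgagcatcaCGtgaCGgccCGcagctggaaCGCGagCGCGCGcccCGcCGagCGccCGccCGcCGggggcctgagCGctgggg
Cbx7: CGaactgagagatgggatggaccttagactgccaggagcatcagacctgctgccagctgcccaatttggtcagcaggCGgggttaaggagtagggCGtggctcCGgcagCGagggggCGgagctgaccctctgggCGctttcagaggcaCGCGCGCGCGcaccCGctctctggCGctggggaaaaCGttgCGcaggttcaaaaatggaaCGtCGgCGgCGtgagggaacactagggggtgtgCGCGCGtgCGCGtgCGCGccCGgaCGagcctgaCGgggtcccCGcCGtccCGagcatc
Serhl: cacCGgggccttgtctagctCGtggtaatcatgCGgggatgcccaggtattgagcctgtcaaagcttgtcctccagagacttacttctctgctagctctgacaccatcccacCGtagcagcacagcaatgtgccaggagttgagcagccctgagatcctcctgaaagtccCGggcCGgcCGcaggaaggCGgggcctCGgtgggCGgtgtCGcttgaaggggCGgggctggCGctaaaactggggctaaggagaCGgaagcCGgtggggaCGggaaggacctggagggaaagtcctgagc

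The promoters of the 2 Polycomb genes are rich in CG dinucleotides. The window of Cbx6 holds 31 of them and that of Cbx7 33, more than 89.4% and 91.4% of the 32851 promoters of the table, where the median is 7. The window of Serhl holds 16. An E-box (CACGTG, which reads the same on both strands), a site that clock factors can bind, lies in the Cbx6 window and in neither of the others, and 7.15% of all promoters of the table hold it. A D-box (TTATGTAA, searched on both strands) was found in none of the 3, and 0.938% of all promoters hold it. These windows are from the reference strain C57BL/6J and were not read in the mice.

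Of the 45 members, 32 had at least 1 probe set above the dim level of log2 4 in the mean of the 6 arrays, with 59 such probe sets in all. For 22 of these 59 probe sets (37.3%), all 3 values of one group lay above all 3 of the other. The background was 13.7% over all probe sets of the array that are not dim. The 22 probe sets belong to 10 genes and were both higher and lower in the knockout mice, 14 higher (background 8.03%) and 8 lower (background 5.65%). The lower genes were Cbx6, Cbx7, Cyp2d22 and Serhl, and the higher ones were Tab1, Phf5a, Csdc2, Poldip3, Cyb5r3 and Bik. Without regard to sign, the 59 member probe sets differed by a median of 0.20 (log2), against 0.090 over all probe sets that are not dim. Without control 2, 37 member probe sets did not overlap, and the count over the whole array moved from 2685 to 6307 as well. For a fixed set of probe sets, the omission of any array can only keep or raise such a count. In whole glomeruli, fewer cells of a type and less RNA per cell cannot be told apart.

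**Figure D1:**
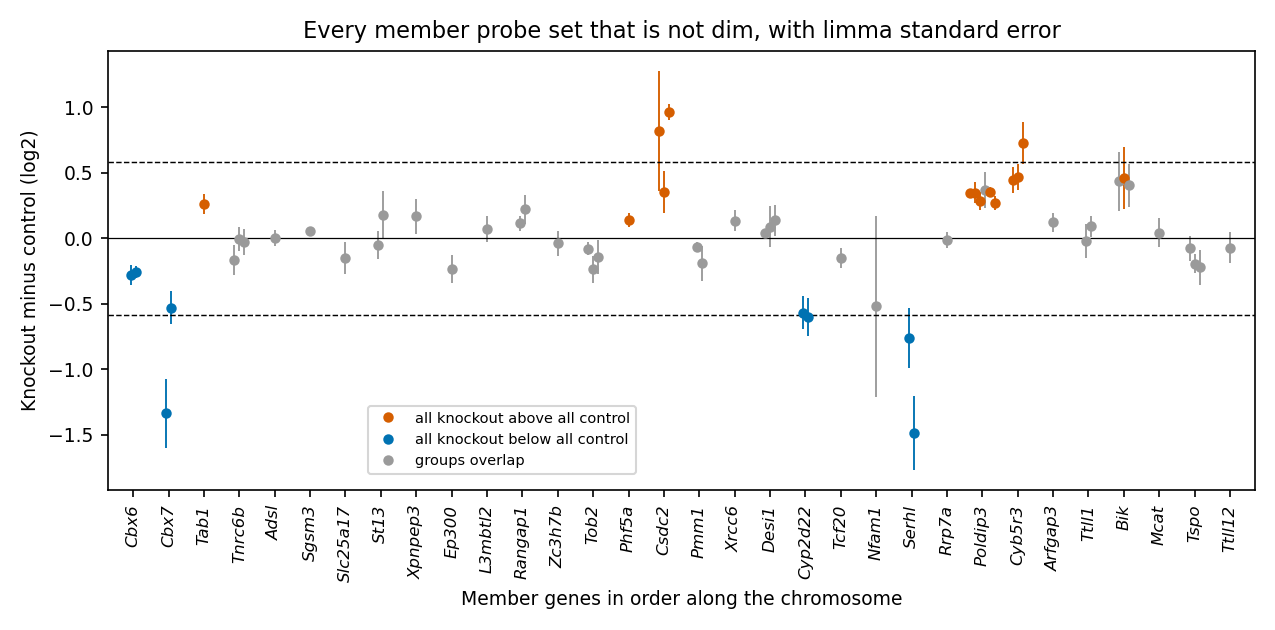
Difference between knockout and control (log2) of each of the 59 member probe sets that are not dim, with genes in order along the chromosome. Points are differences of the means of 3 mice, bars are the limma standard error, orange and blue mark probe sets without overlap between the groups, grey marks overlap, and dashed lines stand at 1.5-fold. Orange and blue points lie in genes up to Tab1 and from Phf5a on, and the genes plotted between Tab1 and Phf5a are grey.

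Cbx7, a Polycomb gene, was among the largest differences of the block. Its first probe set was at 5.03, 5.11 and 5.05 (log2) in knockout against 6.16, 6.95 and 6.09 in control glomeruli. The difference was -1.34 with a standard error of 0.27, or 2.53-fold. The knockout mice lay within 0.038 (SD, n = 3) of each other, whereas the control mice were spread by 0.48 (SD, n = 3), mostly through control 2, and without each array in turn the difference was -1.49 to -1.06. A second probe set was at 6.94, 7.19 and 6.85 in knockout and at 7.41, 7.68 and 7.50 in control glomeruli, a difference of -0.53 (standard error 0.13). The third had the same value of 2.21 on all arrays, the level of probe sets without signal.

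Cbx6, the other chromobox gene, lies 81.5 kb from Cbx7 and was lower in all knockout mice by both of its probe sets, but by much less. One was at 9.65, 9.73 and 9.72 in knockout and at 9.89, 10.04 and 9.94 in control glomeruli. Its difference was -0.26 (standard error 0.047). The other differed by -0.28 (standard error 0.077). Both groups were tight for Cbx6, with an SD of 0.044 to 0.11 over 3 mice. Apobec3 and the Pdgfb gene of the same stretch did not separate the groups, with differences of -0.24 for Apobec3 and of -0.26 and -0.050 for the 2 probe sets of Pdgfb. The annotated spans of Apobec3, which ends at 79918218, and Cbx7, which starts at 79915804, overlap. Whether a probe set of the one could also bind RNA of the other was not tested.

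The Polycomb relatives of these genes outside the block were near 0. Cbx2 differed by 0.080 (standard error 0.20) and Cbx8 by -0.096 (standard error 0.081), and their groups overlapped. Ep300, L3mbtl2, Tcf20 and Tob2, the remaining chromatin and transcription genes of the block, overlapped between the groups as well. Ep300 differed by -0.24 (standard error 0.11) and was low in control 3 as well as in the knockout mice. Of the 10 probe sets of these 6 genes that are not dim, 4 were lower without overlap (background 5.65%) and none higher (background 8.03%).

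Csdc2, which encodes an RNA-binding protein with a cold shock domain, was higher in all knockout mice by all 3 of its probe sets. The tightest was at 6.26, 6.21 and 6.06 in knockout and at 5.21, 5.20 and 5.23 in control glomeruli, a difference of 0.97 (standard error 0.060) and a fold of 1.95. The gap between the lowest knockout and the highest control mouse was 0.83. The others were less tight. The second was at 6.24, 5.38 and 5.40 in knockout and at 4.08, 5.16 and 5.31 in control glomeruli, so that its difference of 0.82 (standard error 0.46) rested on knockout 1 and control 1 and was 0.43 without control 1 and 0.54 without knockout 1. The third differed by 0.36 (standard error 0.16), and by 0.20 without control 2. Carhsp1, the related cold shock gene on chromosome 16, differed by -0.0095 and -0.14 in its 2 probe sets, and its groups overlapped.

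Poldip3, an RNA-binding protein of mRNA export and translation, was higher by a similar amount in each of its 6 probe sets. The differences ran from 0.27 to 0.37 (log2). Most of these probe sets are of a cross-hybridizing kind (_x_at), so that they are not 6 separate readings. The 2 tightest probe sets were at 10.31, 10.27 and 10.20 in knockout against 9.91, 9.93 and 9.86 in control glomeruli, and at 9.20, 9.20 and 9.12 against 8.84, 8.79 and 8.85. For 5 of the 6 probe sets the groups did not overlap, and in the remaining one knockout 3 had the same value as control 1, 5.31. The standard errors of these 2 were 0.035 and 0.031, against differences of 0.36 and 0.35. No probe set of Poldip3 reached 1.5-fold.

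Cyb5r3, a reductase that passes electrons to cytochrome b5, starts 4.12 kb beyond the annotated end of Poldip3 and was higher in all knockout mice as well. The probe set with the largest difference was at 12.44, 12.49 and 11.96 in knockout and at 11.52, 11.62 and 11.57 in control glomeruli, a difference of 0.73 (standard error 0.16). Another was at 13.75, 13.86 and 13.53 in knockout against 13.28, 13.27 and 13.18, a difference of 0.47 (standard error 0.10), and the third differed by 0.45 (standard error 0.097). Knockout 3 was the lowest knockout mouse in all 3. The fourth probe set was at the level without signal on all arrays. The family members Cyb5r1 and Cyb5r4, on other chromosomes, differed by 0.031 and 0.021 with overlap between the groups.

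Serhl, which encodes a serine hydrolase-like protein, had the largest difference of the block. One of its probe sets was at 4.60, 4.74 and 5.43 in knockout and at 6.15, 6.65 and 6.43 in control glomeruli. The difference was -1.49 (standard error 0.28), or 2.81-fold. A second was at 5.54, 5.54 and 6.07 in knockout and at 6.21, 6.76 and 6.46 in control glomeruli, a difference of -0.76 (standard error 0.23). Knockout 3 was the nearest to the control mice in both, and without it the differences were -1.74 and -0.94. The other 2 probe sets of Serhl were dim.

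From Serhl to Cyb5r3, 4 neighbouring genes within 76.2 kb went in different directions. Rrp7a, a gene of ribosomal RNA processing, overlaps the annotated end of Serhl by 831 bp and was at 8.20, 8.04 and 8.06 in knockout and at 8.12, 8.18 and 8.05 in control glomeruli, a difference of -0.016 (standard error 0.060). Since Serhl and Rrp7a share sequence, the annotation alone does not tell whether a probe set of the one could also bind RNA of the other.

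Cyp2d22, a cytochrome P450 gene, was lower in all knockout mice by both of its probe sets and by nearly the same amount. One was at 7.85, 7.95 and 8.20 in knockout and at 8.38, 8.68 and 8.74 in control glomeruli, and the other at 7.25, 7.15 and 7.33 against 7.58, 7.90 and 7.95. The differences were -0.60 (standard error 0.15) and -0.57 (standard error 0.12). They lay just on either side of a 1.5-fold difference, which is 0.58 on the log2 scale. Without each array in turn they were -0.71 to -0.53 and -0.68 to -0.50. The 7 Cyp2d genes that had been listed as relatives lie in the block themselves, and the 6 with a probe set of their own were dim.

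Bik, Tab1 and Phf5a were higher in the knockout mice. Bik was at 5.52, 5.28 and 5.27 in knockout and at 4.45, 4.98 and 5.25 in control glomeruli by 1 probe set, a difference of 0.46 (standard error 0.24) that was 0.24 without control 1. In the other 2 probe sets of Bik, which differed by 0.44 and 0.40, control 3 lay among the knockout mice. Tab1 was at 6.18, 6.21 and 6.13 in knockout and at 5.78, 5.90 and 6.04 in control glomeruli, a difference of 0.26 (standard error 0.077). Phf5a, a subunit of the splicing factor SF3b, was at 9.98, 10.07 and 9.97 and at 9.80, 9.96 and 9.85, so that the groups were only 0.012 apart.

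**Figure D2:**
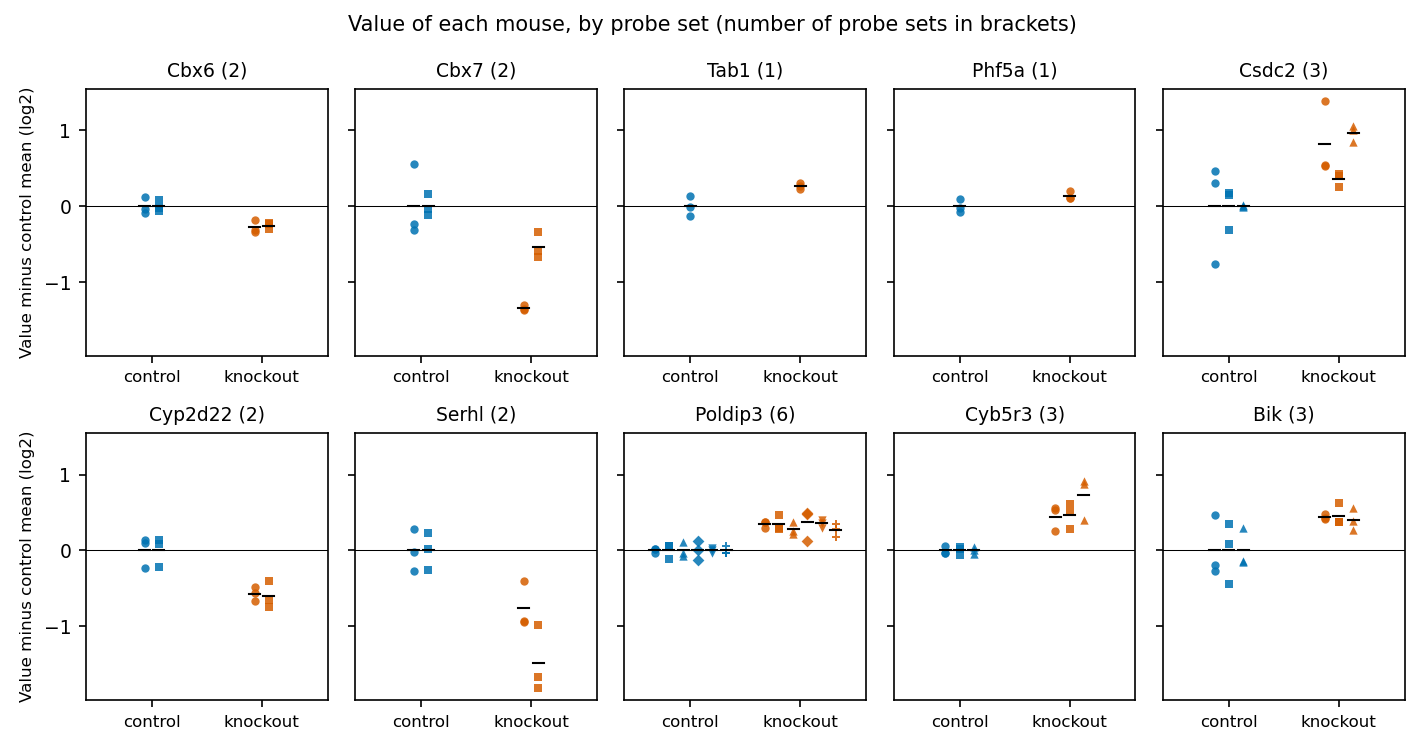
Log2 value of each mouse minus the mean of the control mice, for the 10 members with a probe set whose groups do not overlap. Each column of points is 1 probe set that is not dim, blue points are the 3 control mice, orange points the 3 knockout mice, and black bars the group means. All probe sets of a gene lie on the same side of 0 in the knockout mice.

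Probe sets of 1 gene mostly went the same way. Of the 16 members with several probe sets that are not dim, all differences had 1 sign in 14, and the exceptions were St13 and Ttll1, whose differences were small (-0.051 and 0.18 for St13, -0.022 and 0.090 for Ttll1). Probe sets of a gene read the same RNA of the same mice. No share over other genes of the array is set beside the 14, so nothing is read from it. No member had 1 probe set higher and another lower without overlap, and this count was 0 under each normalization, filter and omission of an array for which it was computed. The size was less alike than the sign. Csdc2 ranged from 0.36 to 0.97, Cbx7 from -1.34 to -0.53 and Serhl from -1.49 to -0.76, whereas Poldip3, Cyp2d22 and Cbx6 agreed closely among their probe sets. The largest differences of Csdc2, Cbx7 and Serhl were all on probe sets of cross-hybridizing kinds (_s_at or _x_at). The probe sequences were not analysed here, and how well each probe fits the RNA of the mice was not tested.

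The study's own criterion combined an unadjusted p under 0.05 with a difference of more than 1.5-fold. With limma, 6 of the 96 member probe sets passed it, against 0.18% of all probe sets of the array, and 4 were lower (background 0.0953%) and 2 higher (background 0.0843%). These were 1 probe set each of Cbx7, Csdc2, Cyb5r3 and Cyp2d22 and the 2 of Serhl that are not dim. The second probe set of Csdc2, at 0.82, had the fold but not the p. Since the block was chosen from this contrast, nothing is read from the count. No member passed an adjusted p of 0.05 with limma (Benjamini-Hochberg over all probe sets, lowest adjusted p = 0.502, background 0.00222%), 19 had an unadjusted p under 0.05 (background 3.63%), and with SAM, the test of the study's methods, 22 of the 72 that vary between arrays did (background 8.07% of all that vary).

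Between Tab1 and Phf5a, over 1.73 Mb, no member separated the groups by a probe set of its own (background 13.7%). The ends of this stretch were set by the separated members themselves, so nothing is read from the count. A probe set that Rbx1 shares with its pseudogene, given further on, did separate the groups. This stretch holds 18 members, of which 11 had 17 probe sets that are not dim, with differences from -0.24 to 0.22. Among them Tnrc6b of RNA silencing, the purine enzyme gene Adsl, the peroxisomal carrier gene Slc25a17, the co-chaperone gene St13 and Rangap1 of nuclear transport lay in this range. Beyond Cyb5r3, the 5 genes other than Bik that are not dim differed by -0.22 to 0.12, the mitochondrial translocator protein gene Tspo among them.

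Tef and Rps19bp1, which are no members, also lie between Tab1 and Phf5a and separated the groups. Tef, a transcription factor of the circadian output, starts at position 81802673 between Zc3h7b and Tob2. One probe set was at 7.94, 7.99 and 8.08 in knockout and at 8.72, 9.03 and 8.55 in control glomeruli, a difference of -0.76 (standard error 0.14) that passed the criterion of the study. A second probe set of Tef differed by -0.55 (standard error 0.18), also without overlap. Besides Tef, Rps19bp1 was the only one of the 11 other genes of the block that are not dim in which the groups did not overlap (0.20, standard error 0.080). Zc3h7b (-0.039) and Tob2 (-0.24, -0.14 and -0.079), on either side of Tef, overlapped between the groups.

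The genes around both ends of the block were compared once, with no test. Just outside the far end, Sun2 and Dnal4 differed by -0.041 and -0.17 with overlap between the groups, against -0.26 and -0.28 in Cbx6 and -1.34 and -0.53 in Cbx7 just inside. At the end nearer to Ddn, Mpped1 and Efcab6 outside and Scube1 inside were at the level without signal on all arrays, and Ttll12 differed by -0.071. The edge on that side could therefore not be seen in these genes.

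Windows of 5 Mb along the chromosome showed where else the groups were apart. The window from 20 to 15 Mb before Ddn, which holds the block, had 31.1% of its 103 probe sets without overlap, against the background of 13.7%. Of these 32 probe sets, 22 are those of the members, which were noticed through this same contrast, so nothing is read from this share. The other genes of the block had 18.75% of 16. The next windows towards Ddn had 25.9% of 27, 34.1% of 44 and 18.4% of 49, and the window beyond Ddn had 11.2% of 98. On the far side, the window from 25 to 20 Mb had 13.8% of 94. A window from 60 to 55 Mb before Ddn had 40% of only 15 probe sets. In all, 13 of the 19 windows with a value were above the background. Outside the block, 16.7% of the 603 probe sets of chromosome 15 and 13.7% of the 17220 on other chromosomes did not overlap. Probe sets of a gene are not independent of each other, and no test was made.

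**Figure D3:**
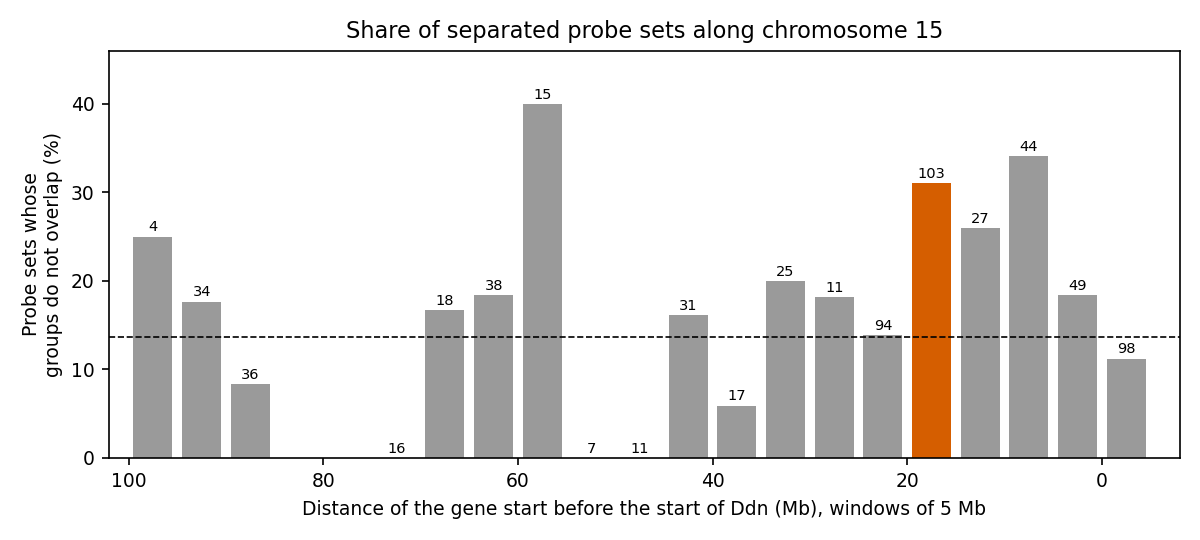
Percent of probe sets that are not dim in which all mice of one group lie above all mice of the other, in windows of 5 Mb by the distance of the gene start before Ddn. The orange bar is the window that holds the block, the number above each bar is its count of probe sets, a gap without a number is a window with none, and the dashed line is the 13.7% of the whole array. Of the 19 windows with a value, 13 lie above the line, the one with the block at 31.1%, which includes the members noticed through this contrast.

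**Figure D4:**
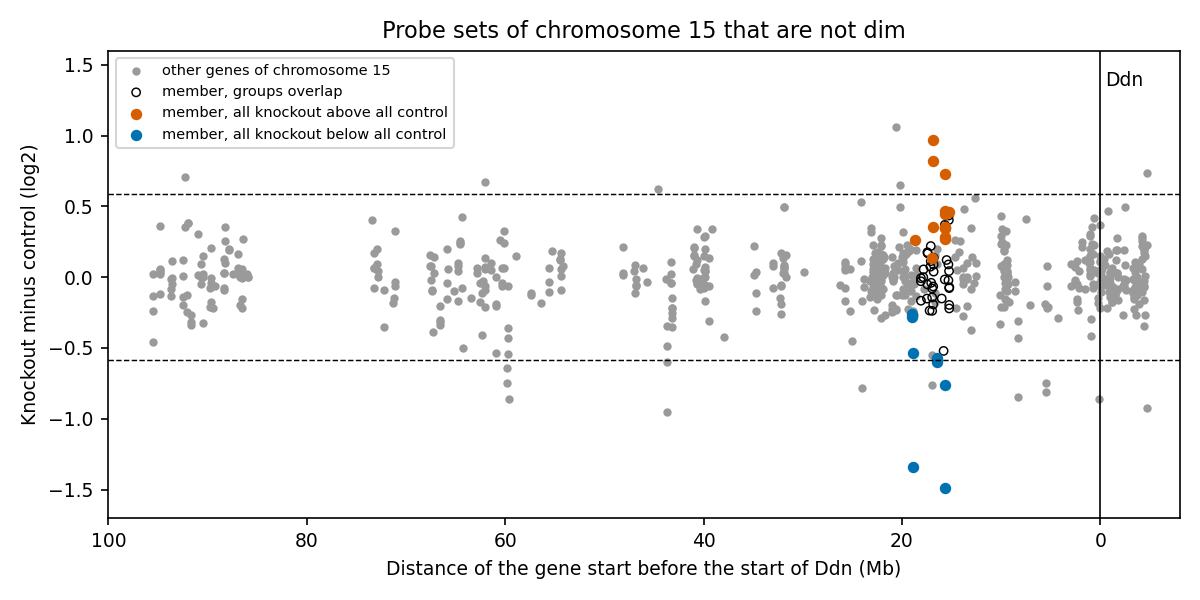
Difference between knockout and control (log2) of all probe sets of chromosome 15 that are not dim, against the distance of the gene start before the start of Ddn (Mb). Grey points are other genes, open circles are members whose groups overlap, orange and blue points are members whose groups do not, dashed lines stand at 1.5-fold, and Ddn itself is left out. Members from -1.49 to 0.97 stand among the largest differences of the chromosome.

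The knockout mice were not alike within the block. Over the 22 probe sets without overlap, knockout 3 was the nearest to the control mean in 17 (77.3%), knockout 2 in 5 and knockout 1 in 0. Over all 2685 such probe sets of the array, knockout 3 was the nearest in 27.6% and knockout 1 in 45.5%. The probe sets of Cyb5r3, Cyp2d22 and Serhl that did not overlap and the 5 of Poldip3 all had knockout 3 nearest, and in Cbx7 it was knockout 2 in both. This was noticed after the values were seen, and the 22 probe sets come from only 10 genes of 3 mice.

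The families of the members were listed as well. Of the 67 relatives listed, 54 outside the block had a probe set of their own and 30 genes had 56 probe sets that are not dim. In 8 of these 56 (14.3%, background 13.7%) the groups did not overlap, 4 higher and 4 lower, none passed the criterion of the study, and the median size was 0.097. The largest were those of Cbx5 on chromosome 15 (-0.34), Tnrc6a on chromosome 7 (-0.24), Ttll7 on chromosome 3 (0.21) and L3mbtl3 on chromosome 10 (-0.21). Among them, Cbx5 and Tnrc6a did not overlap between the groups. Another probe set of Cbx5 differed by 0.20 with overlap.

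By role, the separated members of the block fell on different sides. In RNA binding, splicing and ribosome genes, 9 of 15 probe sets that are not dim were higher without overlap (background 8.03%) and none lower (background 5.65%), all of them from Csdc2, Poldip3 and Phf5a. In metabolism, 3 of 13 were higher (background 8.03%) and 4 lower (background 5.65%). In signalling, 2 of 5 were higher (background 8.03%), those of Tab1 and Bik. None of the 11 probe sets of ubiquitin, SUMO, tubulin and chaperone genes separated the groups (background 13.7%). Nor did the 2 of sugar genes or the 2 of vesicle genes. With so few probe sets and this background, nothing is read from their absence. The DNA repair gene Xrcc6 differed by 0.14 with overlap, and no gene of secreted matrix was above the dim level. Csdc2 and Poldip3 contribute several probe sets each, so that these counts follow few genes.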

How the data were processed

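The authors hybridized glomerular RNA to Affymetrix whole-genome mouse arrays and normalized the raw data with GCRMA (version 2.30.0), so that the deposited values are log2 intensities of probe sets after background subtraction, quantile normalization and summarization. Raw intensities were not analysed here. Of the 45101 probe sets, 34958 name a single gene, 932 several and 9211 none in the platform annotation, and 34754 were placed on GRCm38.p6. Probe sets with a mean under log2 4 are called dim (56.5%). Groups follow the genotype labels. Differences are knockout minus control from limma (version 3.58.1, R 4.3.3; lmFit and eBayes on all probe sets without filter or covariate), which was tested on simulated data. SAM was written out in code. The members and lists were chosen with earlier results of these data known. Named are the members with a probe set that is not dim and whose groups do not overlap, Ddn, the 2 genes beyond each end, neighbours past the criterion and the 4 relatives with the largest difference. A few further genes were named after their values were seen. Precision is limited by the number of arrays, and an exact permutation test of groups of 3 has 0.1 as its smallest p. Alternatives were other tests, variance models, filters, normalizations, an offset, the replicate block and the omission of each array.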

Additional observations from a re-analysis of the deposited data

How the results depend on the processing

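No difference changed sign over 25 probe sets of the 10 separated genes and 10 settings. The settings were normalizations, an offset, the replicate block and the omission of each array. Of the 250 values, 248 moved by less than the spread between mice. Much of this was fixed in advance. Neither the offset nor the omission of 1 array can reverse a probe set whose groups do not overlap. Omission of 1 array moves a group mean by less than the SD of its 3 mice. The replicate block leaves each difference as it was. For probe sets without overlap, only the normalizations could therefore have changed the sign. With an offset of 16 the differences of Csdc2 and Serhl shrank to 0.74 and -1.12. The count past the criterion, 6, was 3 with a mean of at least log2 6 or without cross-hybridizing (_s_at and _x_at) probe sets, and 2 with 1 probe set per gene or a fold over 2. The count without overlap, 22, was 9 with 1 probe set per gene and 12 without cross-hybridizing probe sets, where the array had 1438 and 2285 in place of 2685; the settings on level, probe set kind and 1 per gene take in fewer probe sets. With 1 array left out in turn, the count without overlap was 26 to 37 (array 3951 to 6307), the highest without control 2. Groups that do not overlap still do not when 1 array is left out. For a fixed set of probe sets this count could therefore only stay or rise, and nothing is read from its rise. Why it was highest without control 2 was not tested. The count past the criterion was 4 to 8. Over all probe sets the criterion was passed by 81, by 111 when refitted on those with a mean of at least log2 4, by 140 without control 2, by 45 with 1 probe set per gene and by 14 at a fold over 2. Replicate numbers are in both groups. The deviations of same-numbered mice correlated by 0.095, 0.35 and 0.25 over 19619 probe sets, each mouse best with its own number. For control 1 this was nearly a tie, at 0.0949 with knockout 1 and 0.0943 with knockout 3. The labels do not say what a number shares. With the replicate block, 5 member probe sets and 64 of the array passed the criterion. Signal over background limits the 37 dim member probe sets, of which 24 had the same value on all arrays.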

Other observations

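Members without a usable probe set of their own were looked at where they share one. Rpl3, a protein of the large ribosomal subunit, has no probe set of its own, and 1 shared with the gene model Gm12816 was at 13.66, 13.68 and 13.67 in knockout and at 13.68, 13.64 and 13.68 in control glomeruli. Rbx1, the ring protein of cullin ubiquitin ligases, was dim in its own probe set, whereas 1 shared with its pseudogene Rbx1-ps was at 12.30, 12.39 and 12.35 in knockout and at 12.24, 12.21 and 12.30 in control glomeruli, a difference of 0.094 (standard error 0.035) without overlap. In another 2 probe sets shared with Rbx1-ps, the differences were 0.15 and 0.20 with overlap between the groups, and the remaining 2 had the same value on all arrays. Cacna1i and Pacsin2 were not measured. Syngr1, Mgat3, Grap2, Fam83f, Mchr1, Chadl, Mei1, A4galt and Scube1 were dim in all of their probe sets, a bound on what these arrays show rather than a level.

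Nfam1, a receptor gene of immune cells, had the largest difference among members whose groups overlap, -0.52 (standard error 0.69), and varied within both groups. It was at 4.77, 4.40 and 6.01 in knockout and at 6.01, 4.53 and 6.20 in control glomeruli. The mean of the 10 leukocyte markers, none of them dim, was 11.40, 10.97 and 11.77 in knockout and 11.39, 9.18 and 11.86 in control glomeruli. Nfam1 was low in knockout 2 and control 2, where the markers were lowest, and high in knockout 3 and control 3, where they were highest. It did not follow the markers in the remaining pair. Knockout 1 and control 1 had marker means of 11.40 and 11.39, but Nfam1 was at 4.77 and 6.01. The part of leukocyte content in the values of Nfam1 was not tested. Nfam1 was picked after its values were seen.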
